A study of Mus musculus with 26 samples.

Results

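The deletions named Δ104 and Δ306, both at the mouse Fgf9 locus, were compared with each other in XY gonads at E13.5 (embryonic day). The comparison used 7 of the 26 RNA-seq samples of the study, all 4 labelled Δ104 and all 3 labelled Δ306, and covered every gene with enough reads. Genes of the steroidogenic and interstitial cells were set beside those of the supporting cells. In both groups the genotype label names Fgf9 and the deletion, and the gonads were dissected away from the mesonephros and frozen before poly(A) RNA was made into strand-specific libraries. Wild type (WT, 3 libraries) and the deletions Δ225 and Δ93 (6 libraries each) at the same stage entered the same fit and are given for reference. The labels give no deletion boundaries, zygosity, strain, litter or parent. The number in a deletion's name is used here only as a name. The Δ104 samples are labelled as biological replicates and the Δ306 samples only as replicates, so the spread between samples may in part be technical. The p-values of the main fit rest on a spread within groups estimated over all 22 libraries, not over these 7 alone.

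Fgf9 encodes a secreted fibroblast growth factor that supports the male fate of the supporting cells of the XY gonad. Male supporting cells become Sertoli cells, which express Sox9 and Amh, and their female counterparts, the pre-granulosa cells, express Foxl2, Fst and Wnt4. Around the testis cords lies the interstitium, whose progenitor cells express Pdgfra, Tcf21 and Nr2f2. Fetal Leydig cells arise there under the influence of Sertoli-derived desert hedgehog and make androgens from cholesterol. In a bulk sample, fewer cells of a type and less RNA per cell cannot be told apart.

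Library totals were 17.5 to 35.2 M counts in Δ104 (median 20.3) and 21.8 to 31.8 M in Δ306 (median 27.3). Every pair of replicates differed beyond counting error. Levels are CPM, counts relative to the scaled library size, and differences are log2 values of Δ104 minus Δ306. Gonadal somatic genes marked all 7 libraries: Gata4 was at 303.6 to 464.9 CPM in Δ104 and 234.4 to 269 CPM in Δ306, and Wt1 at 215.5 to 442.5 and 323.9 to 343.8 CPM. Xist was at or below 0.671 CPM in each of the 7. The Y-linked genes Ddx3y, Eif2s3y, Kdm5d and Uty were uneven. Their summed level was 1.92 to 36.2 CPM in Δ104, 0.141 to 11.7 CPM in Δ306 and 31.2 to 77.2 CPM in WT, and Eif2s3y and Kdm5d were at 0 in Δ306 replicate 3 and in Δ104 replicates 1 and 3. The part of this in the results was not tested.

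Fgf9 (chromosome 14, 58070547 to 58112720, plus strand, GRCm38) was at 2.72, 5.16, 6.98 and 4.52 CPM in Δ104 replicates 1 to 4. In Δ306 replicates 1 to 3 it was at 2.94, 2.17 and 2.33 CPM. The means were 4.85 ± 1.76 CPM (SD, n = 4) and 2.48 ± 0.406 CPM (SD, n = 3), below the 9.21 to 9.85 CPM of WT in every library. The groups overlapped, because Δ104 replicate 1 lay under Δ306 replicate 1. The difference of 0.96 (SE 0.42, 95% interval 0.09 to 1.83) did not pass edgeR's quasi-likelihood test with Benjamini-Hochberg adjustment (adjusted p 0.388).

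Across the transcriptome 15 of 22941 tested genes were called at an adjusted p under 0.05, which is 0.0654% of them. Of these, 14 were higher in Δ104 (0.0610%) and 1 was lower (0.00436%), and no library of one group overlapped the other at any of them. Among all genes tested the groups did not overlap at 2577 (11.2%), 1329 higher (5.79%) and 1248 lower (5.44%) in Δ104. An unadjusted p under 0.05 was found for 2547 genes (11.1%), 1630 of them higher (7.11%) and 917 lower (4.00%). DESeq2 on the same libraries called 385 of 20018 genes (1.92%), 311 of them higher (1.55%) and 74 lower (0.370%) in Δ104, and the authors' deposited table lists 381 at an adjusted p under 0.05. All 15 edgeR calls were among both. An edgeR fit of the 7 libraries alone called 4 genes, all lower in Δ104, 1 of them among the 15. The edgeR count rested on single libraries: it was 282 of 22845 genes (1.23%; 1.14% higher and 0.0919% lower) without Δ104 replicate 1, 2 without replicate 2, 1 without replicate 3 and 114 without replicate 4. Without Δ306 replicate 1, 2 or 3 edgeR called 0 genes, with 2394, 1834 and 1628 at an unadjusted p under 0.05. The WT and Δ306 samples share one wording of the labels and processing notes, and Δ104, Δ225 and Δ93 share another. That difference and the genotype cannot be told apart between Δ104 and Δ306.

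Wnt5a, which encodes a secreted Wnt ligand and is one of the interstitial progenitor genes listed here, was at 117, 269.6, 447.3 and 315.5 CPM in Δ104 replicates 1 to 4. In Δ306 it was at 103.6, 80.1 and 98.4 CPM. It was higher in Δ104 by 1.61 (SE 0.28, adjusted p 0.0346), and Δ104 replicates 2 to 4 lay near or above the WT range of 279.3 to 357.4 CPM, while replicate 1 stood just above Δ306. Prlr, the prolactin receptor, was at 4.36, 12.9, 32.4 and 27 CPM in Δ104. Its level was 1.84, 2.26 and 1.8 CPM in Δ306. The difference of 3.27 (SE 0.54, adjusted p 0.0329) was the second largest increase after Gm5292, and Δ104 replicate 1 was again the lowest of its group.

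Gja1, which encodes the gap-junction protein connexin 43, was at 133.4, 165.3, 300.1 and 219.1 CPM in Δ104. It was at 83.7, 74.9 and 85.1 CPM in Δ306, a difference of 1.33 (SE 0.21, adjusted p 0.0223). Lifr, the receptor of leukaemia inhibitory factor, was at 52.2, 87.2, 124.9 and 66.5 CPM against 39.1, 32.4 and 30.7 CPM, a difference of 1.28 (SE 0.24, adjusted p 0.0491). Both groups of libraries were fully apart at these genes. Grk5, a kinase of G-protein-coupled receptors, was at 38.1, 56.2, 88.8 and 71.1 CPM against 28.5, 28.5 and 29.7 CPM and rose by 1.13 (adjusted p 0.0393). Foxn3, a forkhead transcription factor, was at 87.4, 111.5, 155.9 and 75.7 CPM against 40.8, 40.5 and 38.7 CPM and rose by 1.43 (adjusted p 0.0223). Also called higher in Δ104 were Ak5 (1.43), an adenylate kinase, Lrrc58 (1.32), Nectin1 (1.11), a cell adhesion molecule, Agap1 (0.78) and Klhl42 (0.76).

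The 15 calls were sorted by which group's mean lay nearer to the WT mean. A nearer mean need not be at the WT level. At Foxn3, for example, the means were 107.6 CPM in Δ104, 73.8 CPM in WT and 40 CPM in Δ306. At 11 of them (Gja1, Foxn3, Prlr, Ak5, Wnt5a, Agap1, Nectin1, Klhl42, Grk5, Lrrc58 and Lifr) the WT mean was nearer to Δ104 than to Δ306. At Gm5292, Lrrc8a, Dpysl2 and Myl2 the WT mean was nearer to Δ306. Gm5292, annotated as a processed pseudogene on chromosome 5 and uncertain because its reads may belong to a related gene, was at 1.5, 1.13, 1.57 and 2.53 CPM in Δ104 and 0.0439, 0.119 and 0.177 CPM in Δ306. It was at 0 to 0.0583 CPM in WT, 0.293 to 0.984 CPM in Δ225 and 1.31 to 2.26 CPM in Δ93. Dpysl2, which encodes a protein of the neuronal cytoskeleton, was at 84.9, 86.4, 83.3 and 56 CPM in Δ104 and 47.3, 43.3 and 43.9 CPM in Δ306. It was at 38.3 to 43 CPM in WT, 54.7 to 69.3 CPM in Δ225 and 66 to 84.3 CPM in Δ93. Lrrc8a, a subunit of volume-regulated anion channels, was at 15.1 to 19.6 CPM in Δ104, 6.87 to 9.61 CPM in Δ306, 9.34 to 10.2 CPM in WT, 12 to 19.3 CPM in Δ225 and 11.5 to 17.5 CPM in Δ93. At these 3 genes WT and Δ306, which share one wording of the labels, lay below all libraries of Δ225, Δ104 and Δ93.

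**Figure D1:**
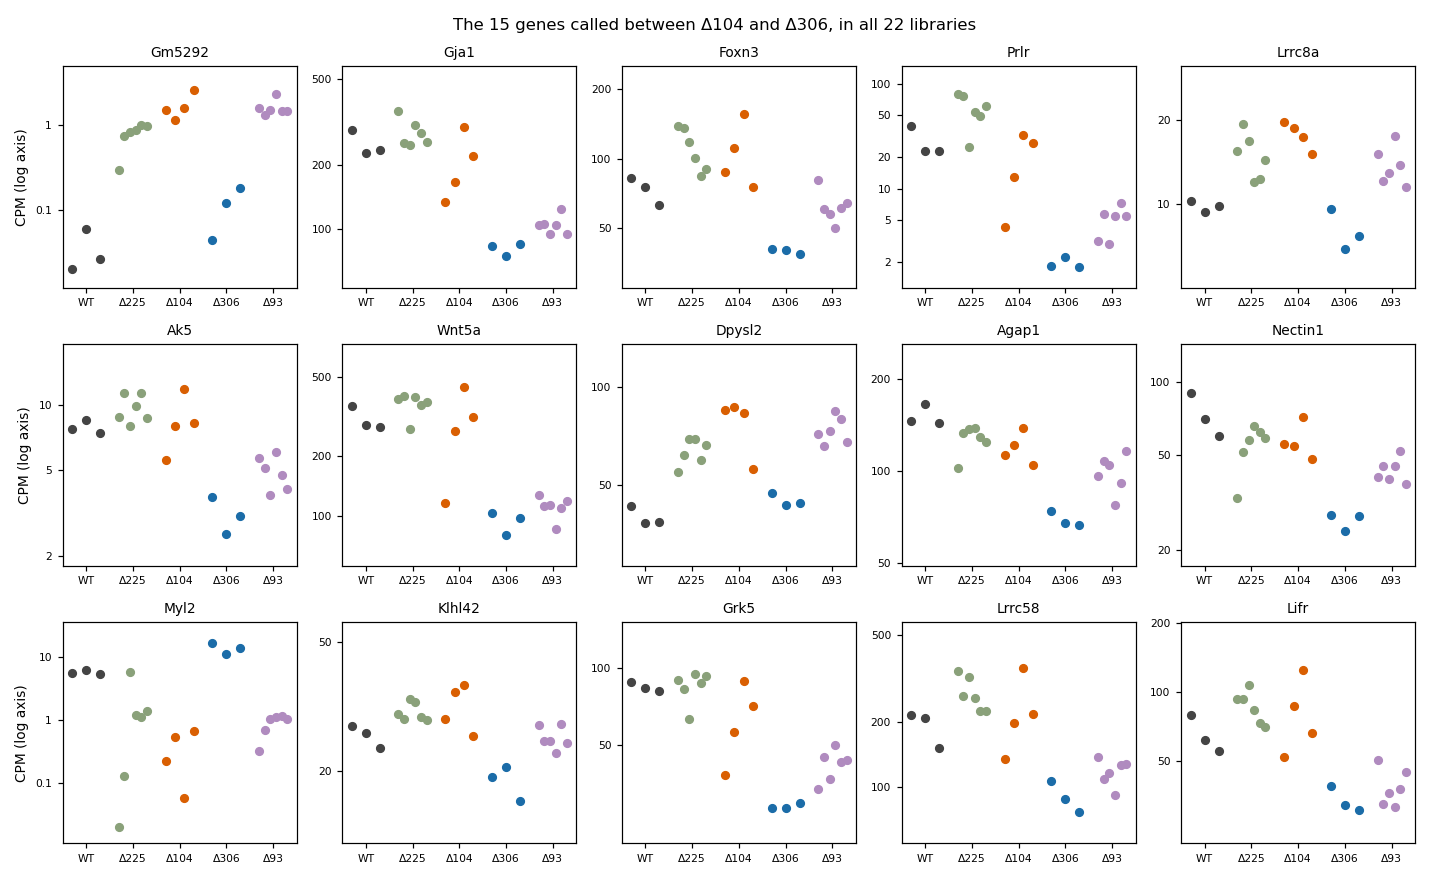
Levels (CPM, log axis) of the 15 genes called between Δ104 and Δ306 in all 22 libraries, 1 point per library, by group; a value of 0 is drawn at 0.02. Δ104 and Δ306 do not overlap at any of them, and WT lies nearer to Δ104 at 11 and nearer to Δ306 at Gm5292, Lrrc8a, Dpysl2 and Myl2.

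The single gene that fell was Myl2, a myosin light chain of heart and slow skeletal muscle. It was at 0.222, 0.541, 0.0581 and 0.681 CPM in Δ104 and at 17.2, 11.3 and 14.1 CPM in Δ306, a difference of −5.24 (SE 0.95, adjusted p 0.0393). WT lay between, at 5.35 to 6.25 CPM, while the Δ93 libraries ranged from 0.33 to 1.18 CPM. The Δ225 libraries were at 0 to 1.39 CPM, except replicate 3 at 5.95 CPM. Apart from that library, WT and Δ306, which share one wording of the labels, lay above all libraries of Δ225, Δ104 and Δ93. Of the 12 striated muscle genes listed, 11 were lower in Δ104 (median −1.38). Among all genes tested 11.2% did not overlap between the groups, and of this list 5 did not. Beside Myl2 these were Actc1 (−2.93), Tnnt2 (−2.82), Ttn (−1.49) and Tnnc1 (−1.27), none of them called. The summed level of the list was 65.5 to 121.8 CPM in Δ104, 138.2 to 166.9 CPM in Δ306 and 75.9 to 211.5 CPM in WT, and Ckm, a defining muscle enzyme, was at 0 in Δ104 replicates 1 and 3. The mesonephric genes also lay lower in Δ104 at 7 of 8 (median −0.54), with a summed level of 16.1 to 49.3 CPM against 34.1 to 61.5 CPM, and Pax2 and Hoxb7 did not overlap. Of these 8 genes 3 were lower with an unadjusted p under 0.05 (4.00% of all genes tested), edgeR called 0, and DESeq2 called Hoxb7 (−1.86, adjusted p 0.014). Wnt9b and Sim1 were at 0 in Δ104 replicate 3, and Sim1 in Δ306 replicate 2. How far tissue left at dissection enters the Myl2 difference was not tested.

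Supporting-cell genes spread widely among the Δ104 libraries, and the groups overlapped at all 32 tested. Of the 19 Sertoli genes 18 were higher in Δ104 (median 1.11, against −0.01 over all 22941 genes, of which 11329 were higher), but edgeR called 0 of them, 5 had an unadjusted p under 0.05, and DESeq2 called 2. Of all genes tested, 7.11% were higher at that unadjusted p, and DESeq2 called 1.55% of its genes higher. The Sertoli median was 0.67 without Δ104 replicate 4 and 0.73 without Δ306 replicate 3, and it reached 1.59 without Δ306 replicate 2. Amh, the hormone that removes the Müllerian ducts, was at 0.361, 154.7, 488.9 and 1166 CPM in Δ104 replicates 1 to 4. In Δ306 it was at 151, 154.2 and 4.95 CPM. The difference of 2.13 had a 95% interval of −1.46 to 5.72 (adjusted p 0.696). Sox9, the transcription factor of Sertoli fate, was at 11.6, 57.8, 116.3 and 88.9 CPM against 64, 50.5 and 11.2 CPM, a difference of 0.71 (−0.72 to 2.14, adjusted p 0.761). Both genes were lowest in replicate 1 of Δ104 and replicate 3 of Δ306. Its relative Sox8 was at 2.22, 15.2, 28 and 35.8 CPM against 7.59, 8.8 and 2.01 CPM (1.72, adjusted p 0.374).

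The 3 Sertoli genes with the smallest p were Vnn1, Hsd17b1 and Mro (1.11, adjusted p 0.368 by edgeR for Mro). Vnn1, a pantetheinase, was at 6.14, 16.3, 28.4 and 35.3 CPM in Δ104 and 7.9, 6.87 and 6.15 CPM in Δ306 (1.62, adjusted p 0.115). Hsd17b1, an enzyme of sex steroid synthesis, was at 0.194, 3.29, 10.2 and 14.9 CPM against 0.878, 1.16 and 0.389 CPM (3.13, adjusted p 0.186). DESeq2 called both, with adjusted p of 0.00591 and 0.0112, and in both Δ104 replicate 1 was the lowest of the 7 libraries. Dhh, the hedgehog ligand that Sertoli cells send to the interstitium, was at 0.417, 21.5, 46 and 67.2 CPM against 16.1, 17.3 and 1.17 CPM (1.55, adjusted p 0.671). Cyp26b1, which breaks down retinoic acid, was at 3.61, 93.2, 245.1 and 219.5 CPM against 48.5, 49.3 and 10.1 CPM (1.96, adjusted p 0.452).

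Of the 13 pre-granulosa genes 9 were lower and 4 higher in Δ104 (median −0.53), and edgeR and DESeq2 each called 0, none of the 13 reaching an unadjusted p under 0.05 in edgeR. With Δ104 replicate 1 left out the median was −1.27, and leaving out Δ104 replicate 3, Δ104 replicate 4 or Δ306 replicate 3 gave −0.32, −0.26 and −0.24. Foxl2, a transcription factor of granulosa fate, was at 77, 40.5, 13 and 1.22 CPM in Δ104 and 36.5, 45 and 85.7 CPM in Δ306. The difference of −0.75 had a 95% interval of −2.47 to 0.96 (adjusted p 0.793). Fst, the activin antagonist follistatin, was at 174.5, 64.8, 11.5 and 1.12 CPM against 71.2, 102.3 and 179.7 CPM (−0.90, adjusted p 0.761). Irx3 was at 115.2, 51.4, 12 and 1.17 CPM against 69.7, 80.9 and 144.3 CPM (−1.12, adjusted p 0.616). In Δ104 replicate 4 Foxl2 and Fst were near their WT levels, a mean of 0.746 CPM for Foxl2 and 1.01 to 1.69 CPM for Fst, and in replicate 1 they were within the range of Δ306. Without Δ104 replicate 1 the median of the list was −1.27, with 0 genes called by edgeR.

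**Figure D2:**
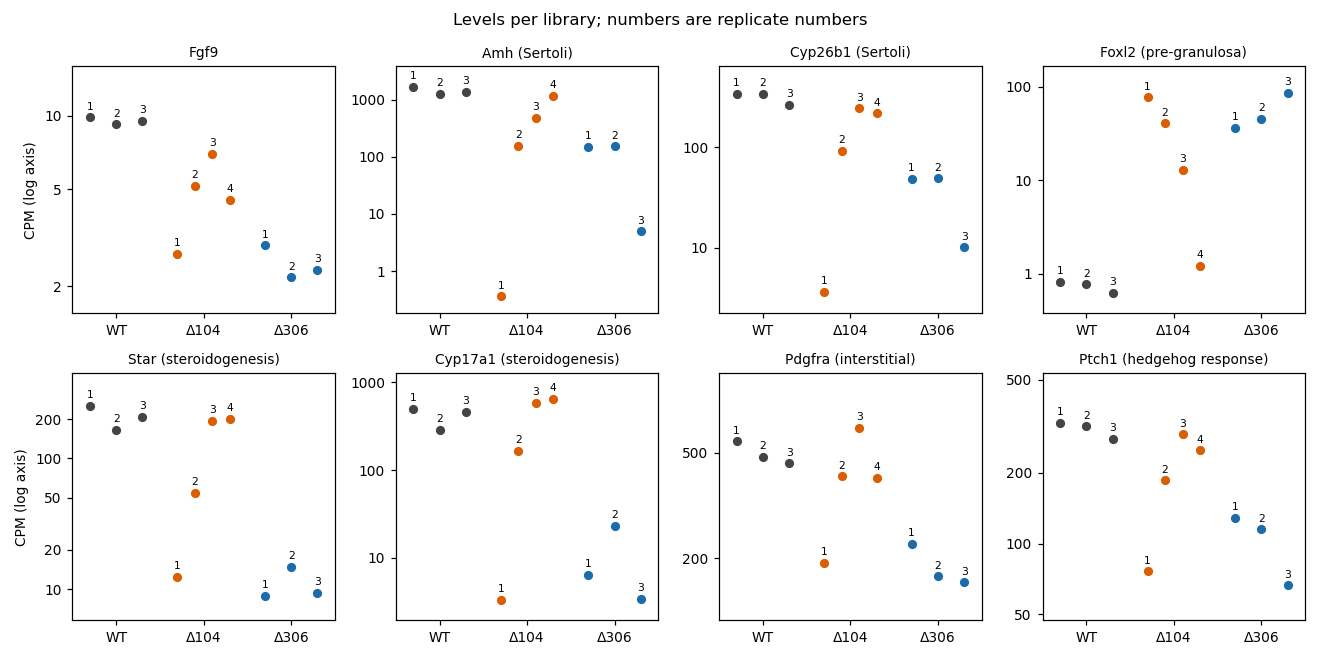
Levels (CPM, log axis) of 8 genes in the WT, Δ104 and Δ306 libraries, 1 point per library, labelled by replicate number. Δ104 replicate 1 lies at or below Δ306 for Amh, Cyp26b1, Cyp17a1 and within or near it for the others, while replicates 3 and 4 lie near or above WT for Star, Cyp17a1 and Ptch1.

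Steroidogenic genes showed the largest median difference among the supporting, steroidogenic and interstitial lists. Of 10 genes that turn cholesterol into steroids 9 were higher in Δ104 (median 3.05), and 7 had an unadjusted p under 0.05. The median was 2.00 over the 8 genes other than Cyp21a1 and Cyp11b1. Those genes had too few counts to pass the filter in a fit of both groups alone. By edgeR 0 were called and the groups overlapped at all 10, whereas DESeq2 called 5 (Star, Cyp11a1, Hsd3b1, Cyp17a1 and Cyp21a1). Of all genes tested, 7.11% were higher at that unadjusted p, and DESeq2 called 1.55% of its genes higher. Star, which moves cholesterol into the mitochondrion, was at 12.5, 54.9, 194.8 and 202 CPM in Δ104 replicates 1 to 4. In Δ306 it was at 8.91, 14.8 and 9.4 CPM, and only Δ104 replicate 1 overlapped. The difference was 3.39 (SE 0.74, adjusted p 0.0792 by edgeR and 1.11e-04 by DESeq2), and without Δ104 replicate 1 edgeR called it at 3.75 (adjusted p 0.00347). With any other single library of the groups left out, edgeR did not call it (adjusted p 0.0673 to 0.414).

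Cyp11a1, the side-chain cleavage enzyme, was at 0.694, 101.3, 373.1 and 457.4 CPM in Δ104 and 6.85, 12.2 and 2.26 CPM in Δ306 (5.03, SE 1.59, adjusted p 0.216). Cyp17a1, which commits steroids to androgens, was at 3.3, 164.6, 581.8 and 647.5 CPM against 6.36, 23.2 and 3.39 CPM (4.98, SE 1.40, adjusted p 0.166). Hsd3b1 was at 21.2, 102.1, 331.4 and 310.2 CPM against 22.6, 40.7 and 24.5 CPM (2.71, SE 0.65, adjusted p 0.109). For these 3 enzymes Δ104 replicate 1 lay below every Δ306 library and the other Δ104 libraries lay above every one. Without Δ104 replicate 1 edgeR called Star, Hsd3b1 and Cyp17a1. With any other single library of the groups left out, it called none of them. Cyp21a1, uncertain because a near-identical pseudogene exists, was at 0, 0.295, 1.16 and 3.31 CPM against 0, 0.0297 and 0 CPM. The electron donors differed less: Fdx1 by 1.29, Fdxr by 0.82 and Por by 0.08, with adjusted p of 0.399, 0.542 and 0.955.

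Of 9 tested genes for Leydig hormones, receptors and their partners 8 were higher in Δ104 (median 1.90), 6 at an unadjusted p under 0.05. EdgeR called 0 and DESeq2 3. The shares over all genes were 7.11% higher at that unadjusted p and 1.55% called higher by DESeq2. Among all genes tested 11.2% did not overlap between the groups. Lhcgr, the receptor of luteinizing hormone, was the one gene of this list whose groups did not overlap, at 4.58, 17.3, 62.7 and 39 CPM in Δ104 and 2.68, 4.02 and 3.21 CPM in Δ306. It differed by 3.21 (SE 0.67, adjusted p 0.0782 by edgeR and 8.46e-05 by DESeq2). Mc2r, the corticotropin receptor, was at 0.861, 1.57, 3.78 and 4.43 CPM against 0.439, 0.982 and 0.671 CPM (1.90, adjusted p 0.137). Gramd1b, a cholesterol transfer protein, was at 23.5, 69.3, 170.5 and 125.7 CPM against 27.8, 33.3 and 19.3 CPM (1.86, adjusted p 0.127). Insl3, the hormone of testis descent, was at 0.0555, 0.393, 1.8 and 11.8 CPM against 0.351, 0.446 and 0.247 CPM (3.30, adjusted p 0.450). Sult1e1 did not pass the filter on low counts.

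Many steroidogenic promoters are known to carry a binding element for the nuclear receptor NR5A1. Its letters CAAGGTC and CAAGGCC were searched on both strands in the 250 bases before the start site in RefSeq windows of GRCm38.p6. Of 20 genes in the steroidogenesis and Leydig lists 11 had a window, and Fdxr and Insl3 held a match, against 8.28% of all 32851 windows. The Insl3 window (chr8:71689002-71689251, plus strand) is shown because it held 2 matches, in capitals, which begin 137 and 57 bases before the start site.
Insl3: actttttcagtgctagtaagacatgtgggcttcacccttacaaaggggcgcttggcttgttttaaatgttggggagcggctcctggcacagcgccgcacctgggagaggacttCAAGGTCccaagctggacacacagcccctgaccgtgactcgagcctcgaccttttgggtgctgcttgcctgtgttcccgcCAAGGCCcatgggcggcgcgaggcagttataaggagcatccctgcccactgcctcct
Nr5a1 itself was at 165.6, 176.4, 260.3 and 283.4 CPM in Δ104 and 169.5, 184 and 155.4 CPM in Δ306 (0.38, adjusted p 0.733), so its groups overlapped.

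Cholesterol supply showed smaller differences in the same direction. Of 16 genes 15 were higher in Δ104 (median 0.39), none differed by more than 0.83, and edgeR and DESeq2 called 0, with 4 at an unadjusted p under 0.05. At 3 of the 16 the groups did not overlap, with Δ104 higher, beside 5.79% of all genes tested. One of them was Dhcr7, an enzyme of the last steps of cholesterol synthesis. It was at 61.7, 72.5, 98.8 and 119.9 CPM in Δ104 and 45.6, 51.7 and 56 CPM in Δ306 (0.79, adjusted p 0.414). Over all 35 tested genes of the steroidogenic lists 32 were higher in Δ104 (median 0.79) and 17 had an unadjusted p under 0.05. This compares with 5 of 19 Sertoli genes (median 1.11) and 0 of 13 pre-granulosa genes (median −0.53). Of all genes tested, 7.11% were higher at that unadjusted p. These lists differ in how strongly their genes vary within groups, and no test compared them.

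Interstitial genes were higher in Δ104 at 37 of 46 (median 0.53), with 18 higher and 1 lower at an unadjusted p under 0.05. EdgeR called 1 (Wnt5a), DESeq2 called 7, and edgeR called 8 without Δ104 replicate 1 and 1 without Δ104 replicate 4. Of all genes tested, 7.11% were higher and 4.00% lower at that unadjusted p. The shares called higher were 0.0610% by edgeR, 1.55% by DESeq2 and 1.14% by edgeR without Δ104 replicate 1. Among 13 progenitor genes 11 were higher (median 0.65). Pdgfra, the receptor of platelet-derived growth factor, was at 192.6, 407.7, 621.3 and 402.8 CPM in Δ104 replicates 1 to 4 and 226.7, 171 and 162.3 CPM in Δ306. Its difference was 1.12 (SE 0.24, adjusted p 0.0792 by edgeR and 0.00239 by DESeq2), and Δ104 replicate 1 alone overlapped. Tcf21 was at 42.6, 112, 195.1 and 225.8 CPM against 107.4, 60.8 and 64 CPM (0.89, adjusted p 0.369).

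Members of the progenitor list did not all lie the same way. Nr2f2, a nuclear receptor of interstitial cells, was at 112.3, 204.9, 343.3 and 296.5 CPM in Δ104 against 207.8, 124.9 and 139 CPM in Δ306 (0.61, adjusted p 0.427). Its relative Nr2f1 was at 6.05, 9.39, 12.6 and 16.1 CPM against 47.9, 14.7 and 20.2 CPM (−1.32, adjusted p 0.217). Δ306 replicate 1 had the highest level of its group for Nr2f1 and for the matrix genes Postn (143 CPM) and Lum (71.2 CPM). Without that library the Nr2f1 difference was −0.68 (adjusted p 0.607 by edgeR).

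Hedgehog response and Notch genes lay higher in Δ104 without an edgeR call. Of 7 hedgehog genes 6 were higher (median 0.89), 4 with an unadjusted p under 0.05, and DESeq2 called Gli2. Of all genes tested, 7.11% were higher at that unadjusted p, and DESeq2 called 1.55% of its genes higher. Ptch1, the hedgehog receptor and a target of the pathway, was at 76.2, 185.7, 292.3 and 249.8 CPM in Δ104 and 128.5, 115 and 66.4 CPM in Δ306 (0.96, adjusted p 0.348). Gli2, a transcription factor of the pathway, was at 25.5, 65.3, 99 and 52.1 CPM against 40.9, 24.4 and 23.6 CPM (1.03, adjusted p 0.180). In both, Δ104 replicate 1 lay within the range of Δ306. All 8 Notch genes were higher (median 0.51), and DESeq2 called the target Heyl and the ligand Jag1. Heyl was at 11.7, 46.6, 127.8 and 91.7 CPM against 23.9, 18.6 and 13.8 CPM (1.88, adjusted p 0.121). Jag1 was at 7.83, 33.3, 59.7 and 59.3 CPM against 18.1, 13.3 and 12.2 CPM (1.46, adjusted p 0.179).

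Structural genes of the interstitium were mixed. Of 10 stromal matrix genes 7 were higher (median 0.47), and edgeR and DESeq2 called 0. At an unadjusted p under 0.05 there were 2 (Col6a3 and Fn1), beside 11.1% of all genes tested. Of 8 perivascular and smooth muscle genes 5 were higher (median 0.27). Acta2, smooth muscle actin, was at 31.7, 122, 198.1 and 183.4 CPM in Δ104 against 49.9, 34.2 and 41 CPM in Δ306 (1.68, adjusted p 0.116, and 0.00571 by DESeq2). Endothelial genes were lower at 6 of 8 (median −0.18) and macrophage genes at 7 of 7 (median −0.19), with 0 called by edgeR or DESeq2 and 1 (Egfl7) at an unadjusted p under 0.05.

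**Figure D3:**
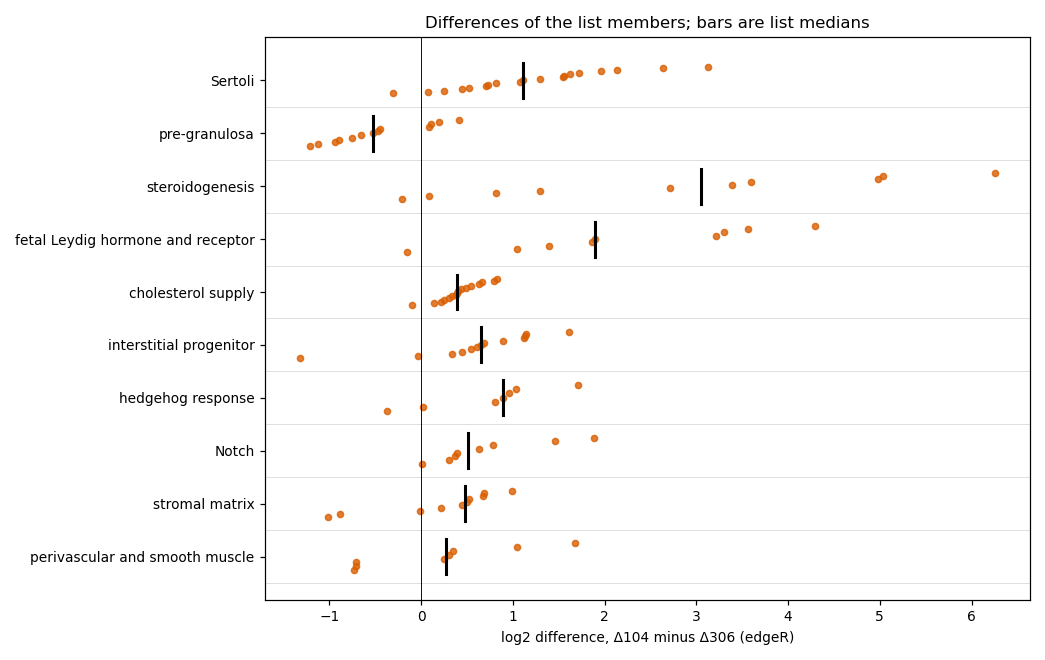
Difference of each tested member (log2, Δ104 minus Δ306) in 10 gene lists, 1 point per gene, with list medians as bars. The medians run from −0.53 for pre-granulosa to 3.05 for steroidogenesis, and steroidogenesis members spread from −0.21 to 6.26. Without Cyp21a1 and Cyp11b1, which have few counts, the steroidogenesis median is 2.00.

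Library by library, a list score was taken as the mean log2 CPM of the list minus its WT mean. The steroidogenesis score was −3.76, −1.55, −0.13 and 0.31 in Δ104 replicates 1 to 4 and −3.14, −2.76 and −3.48 in Δ306. The interstitial progenitor score was −1.56, −0.57, −0.04 and −0.22 against −0.71, −1.40 and −1.21. In both lists Δ104 replicate 1 was the lowest of the 7 libraries and the other 3 lay above all of Δ306.

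**Figure D4:**
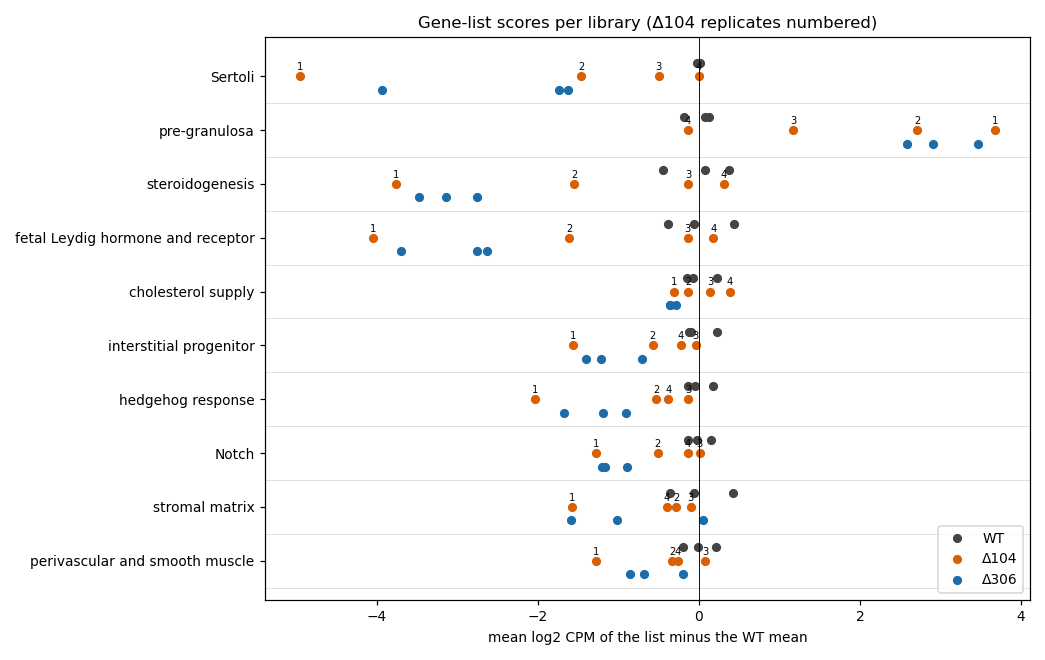
Scores of 10 gene lists (log2, relative to the WT mean) for WT, Δ104 and Δ306, 1 point per library, with Δ104 replicates numbered. Δ104 replicate 1 lies at or beyond Δ306 in most lists, and replicates 3 and 4 lie near WT in most. Replicate 3 is at 1.17 for pre-granulosa and −0.50 for Sertoli genes, and replicate 4 at −0.38 for hedgehog response.

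The supporting-cell balance of a library, the mean log2 CPM of the Sertoli genes minus that of the pre-granulosa genes, was −4.45, 0.01, 2.50 and 4.32 in Δ104 replicates 1 to 4. In Δ306 it was −0.15, −0.34 and −3.23, and in WT 4.08 to 4.37. Δ104 thus ran from below Δ306 to the WT level. Single libraries with nearby balances can be set side by side, as a description without a test. Δ104 replicate 2 (0.01) and Δ306 replicates 1 and 2 (−0.15 and −0.34) had Amh at 154.7, 151 and 154.2 CPM and Foxl2 at 40.5, 36.5 and 45 CPM. Amh and Foxl2 enter the balance themselves, so their likeness in libraries chosen by it is in part built in. In the same 3 libraries Cyp17a1 was at 164.6, 6.36 and 23.2 CPM, Star at 54.9, 8.91 and 14.8 CPM and Wnt5a at 269.6, 103.6 and 80.1 CPM. Wnt5a was called between the groups, which do not overlap at it, so its gap here is also in part built in. Other progenitor genes were mixed. Pdgfra was at 407.7, 226.7 and 171 CPM, but Nr2f2 was at 204.9, 207.8 and 124.9 CPM and Tcf21 at 112, 107.4 and 60.8 CPM. The steroidogenesis scores there were −1.55, −3.14 and −2.76, the interstitial progenitor scores −0.57, −0.71 and −1.40, and the hedgehog scores −0.53, −0.91 and −1.19. The mean scores of Δ306 were −3.12, −1.11 and −1.26 for these lists. As the lists lie at unlike distances from WT, the gaps cannot be compared directly between them. At the other end, Δ104 replicate 1 (−4.45) and Δ306 replicate 3 (−3.23) had Cyp17a1 at 3.3 and 3.39 CPM and Wnt5a at 117 and 98.4 CPM.

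**Figure D5:**
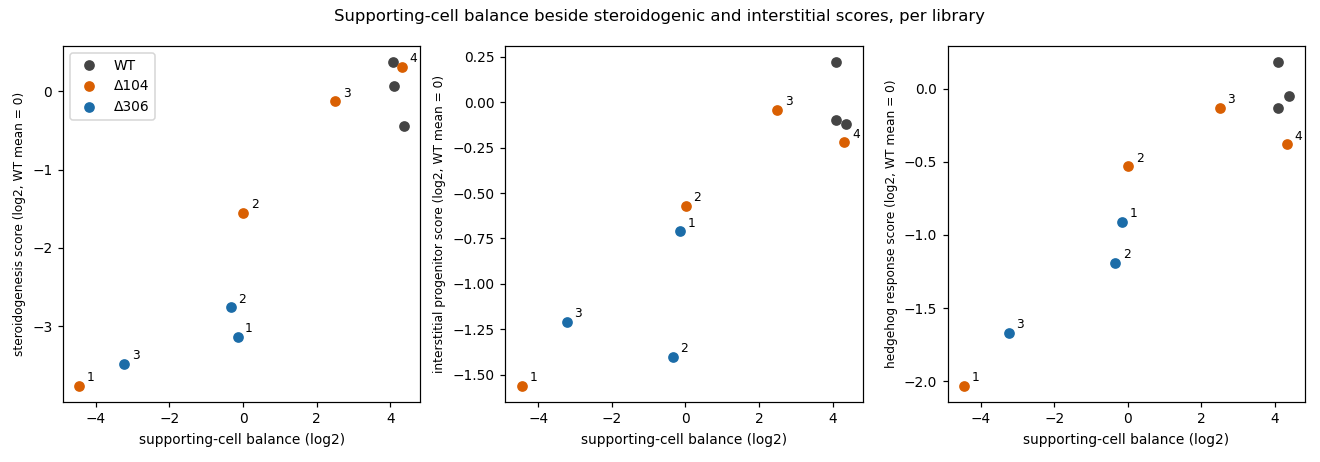
Supporting-cell balance (log2, x axis) against the steroidogenesis, interstitial progenitor and hedgehog response scores (log2, WT mean at 0) of the WT, Δ104 and Δ306 libraries, 1 point per library, mutant replicates numbered. Δ104 replicate 2 and Δ306 replicates 1 and 2 share a balance near 0, with steroidogenesis scores of −1.55, −3.14 and −2.76.

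FGF receptors and targets were higher in Δ104 at 10 of 12 (median 0.38). EdgeR called 0 and DESeq2 called Spred1. At an unadjusted p under 0.05 there were 3, beside 11.1% of all genes tested, and 3 did not overlap, beside 11.2%. Spred1, an inhibitor of Ras signalling, was at 107.9, 145.7, 157.4 and 137.8 CPM in Δ104 and 95.8, 93 and 88.5 CPM in Δ306 (0.57, adjusted p 0.121). Etv5, a transcription factor downstream of FGF receptors, was at 80.7, 92.8, 94.9 and 113.5 CPM against 51.5, 74 and 41.4 CPM (0.78, adjusted p 0.536), and Spred2 was the third of them. Of 15 tested neighbours of Fgf9 on chromosome 14, 8 were higher and 7 lower (median 0.05). Of these 15, 2 did not overlap, Spata13 (0.61, adjusted p 0.321) and Xpo4 (0.34, adjusted p 0.615), beside 11.2% of all genes tested.

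Germ-cell lists showed no edgeR or DESeq2 call. The general germ-cell list had a median of −0.07 and a summed level of 202.4 to 980.8 CPM in Δ104 and 418.4 to 868.3 CPM in Δ306. Meiotic genes were lower in Δ104 at 9 of 10 (median −0.41), and Stra8, which marks meiotic entry, was at 76.7, 50.5, 1.34 and 1.65 CPM against 27.1, 64.5 and 95.9 CPM (−0.93, adjusted p 0.823). Male germ-cell genes were higher in Δ104 at 5 of 6 (median 2.01), but without Δ104 replicate 4 the median was 0.38. At an unadjusted p under 0.05 there was 1 gene in these lists, Nanos2, with 0, 0, 0 and 2.04 CPM in Δ104 and 0, 0.0297 and 0 CPM in Δ306.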

How the data were processed

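The authors deposited raw counts per gene for 22 libraries over 57186 Ensembl gene identifiers. Per the submitters' processing notes, mm10, STAR and DESeq2 were used, with STAR 2.7.10a, featureCounts and Subread named for the WT and Δ306 samples only; the annotation is not given in the sources used here. The authors' deposited comparison gives log2 fold changes and adjusted p-values (Δ306 over Δ104, the direction read from the counts). Symbols came from the reference for 51880 identifiers and from the deposited comparison for 4775. Positions are from GENCODE M21 on GRCm38. EdgeR 4.0.16 (R 4.3.3) was run on all 22 libraries with 1 mean per group: filterByExpr, TMM, the quasi-likelihood F-test (17 residual degrees of freedom) and Benjamini-Hochberg adjustment over 22941 genes, called under 0.05. The fit was also run on simulated counts with known changes. Each gene was drawn independently, without shifts shared across genes in a library, so that run does not bear on the dependence on single libraries. Intervals are 95%. List scores used log2 CPM with a prior count of 2. DESeq2 1.42.0, limma 3.58.1 (voom with quality weights), other scalings, filters and thresholds, the 2 groups alone, each library left out and the replicate block were alternatives. Totals ranged from 11.6 to 53.4 M counts. The rule for named genes took Fgf9, all called genes (at most 30) and the members of the lists, with values per library for the first 4 of each list and the 3 with the smallest p, of which part are printed and some are not reported here; library values of Amh, Dhh, Cyp26b1, Fst, Cyp21a1 and Etv5 and the label-check genes were added after their values were seen. Members and the 23 lists were chosen with earlier results of these data known. The Meis1 samples and the smaller count tables were not analysed here.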

Additional observations from a re-analysis of the deposited data

Results flagged for a closer look

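Of 103 values checked for a library apart from the rest of its group of 4 (Dixon's test at 95%), 5 stood apart, all in Δ104 replicate 4. Chance alone gives about 1 in 20 such values. Dpysl2 was at 56 CPM in that library, against 83.3 to 86.4 CPM in the other 3. Gli3, a transcription factor of the hedgehog pathway, was at 43 CPM there, against 98.5 to 100.6 CPM in the others and 44.7 to 56.3 CPM in Δ306. Insl3 was at 11.8 CPM there, against 0.0555 to 1.8 CPM in the others. Nanos2, a factor of male germ cells, was at 2.04 CPM there and at 0 in the others. Nppa was at 0.0973 CPM there and at 0 in the others, which is 2 counts.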

How the results depend on the processing

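Against 15 by edgeR, the count was 385 with DESeq2, 5815 with voom and quality weights (where Δ104 replicate 2 had a weight of 5.63 and replicate 4 of 0.322), 4 with no composition factor, 6 with no filter on low counts and 4 in a fit of both groups alone (0 higher). It was 0 at an adjusted p under 0.01 and 73 under 0.1, and 0 to 282 with 1 library left out. RLE factors and a filter of 1 CPM gave 12 and 14. The 15 genes kept their direction under all 16 alternatives each, and the call in 111 of 240 values. The cause of these shifts was not tested.

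With the replicate number as a replicate block, on replicates 1 to 3 of both groups, edgeR called 0 genes (3483 at an unadjusted p under 0.05), against 1500 without the block on the same libraries. Deviations of same-numbered libraries had correlations of −0.35, 0.06 and −0.27 across genes, and not every library correlated best with its own number, so the numbers were not taken as pairs. The steroidogenesis median was 0.95 with the block and 1.46 without it on those libraries, and 1.99 in the fit of both groups alone. These fits tested 8 of the 10 genes (Cyp21a1 and Cyp11b1 did not pass the count filter there), over which the median in the fit of all libraries was 2.00 rather than 3.05. With the block the Sertoli median was 0.11 against 1.11. The Fgf9 difference was 1.04 with voom, where it was called (adjusted p 0.0114).

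Some uncalled differences changed sign. With the block these were Amh (−0.04), Por (−0.03), Sox10 (−0.08), Dmrt1 (−0.14), Mvd (−0.33) and Idi1 (−0.10), and on the same libraries unblocked Por (−0.03), Dmrt1 (−0.10), Mvd (−0.27) and Idi1 (−0.09). With voom Mvd was −0.49, Idi1 −0.07 and Por −0.05, and with no composition factor Smo was −0.04. With 1 library left out the ranges that crossed 0 were −0.04 to 1.12 for Sox10, −0.11 to 0.25 for Dmrt1, −0.71 to 0.49 for Runx1, −0.00 to 0.62 for Lef1, −0.64 to 1.16 for Mrap, −0.27 to 0.33 for Mvd, −0.09 to 0.37 for Idi1, −0.06 to 0.11 for Smo, −0.16 to 1.07 for Col1a1, −0.18 to 0.53 for Tagln, −1.09 to 0.34 for Rgs5, −0.04 to 0.13 for Por and −2.03 to 7.0 for Nanos2, which had counts in 1 Δ104 library. For Amh the range was 1.05 to 2.53. The Fgf9 difference then ranged from 0.72 to 1.15, and the medians from 0.67 to 1.59 for Sertoli, −1.27 to −0.24 for pre-granulosa, 2.56 to 3.41 for steroidogenesis and 0.42 to 0.84 for interstitial progenitor genes. Depth limits the genes with few counts, such as Fgf9 at 66 to 120 counts per library.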

Other observations

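The genes here lie outside the rule for named genes and were chosen after their values were seen. Sry, the Y-linked gene that starts testis development, had 6, 9, 0 and 0 counts in Δ104 replicates 1 to 4 and 87, 77 and 37 counts in Δ306 replicates 1 to 3. The difference was −3.95 (SE 1.05), with an adjusted p of 0.138 by edgeR and 0.0140 by DESeq2, and the groups did not overlap. In WT it was at 0.233 to 0.327 CPM, against 1.31 to 3.82 CPM in Δ306. The Δ225 libraries had Sry at 0 to 0.145 CPM and the Δ93 libraries at 0.0531 to 2.32 CPM, which overlaps Δ306. Nr0b1, an X-linked nuclear receptor of the early gonad, was at 12.8, 15.8, 12.7 and 10.2 CPM in Δ104, 31.9, 29.1 and 29.8 CPM in Δ306 and 11.9 to 13.9 CPM in WT (−1.23, SE 0.29, adjusted p 0.109 by edgeR and 0.00862 by DESeq2). Its level was 4.25 to 13.1 CPM in Δ225 and 19.6 to 46.8 CPM in Δ93, which overlaps Δ306. At both genes all 4 Δ104 libraries lay below Δ306, as they did at 5.44% of all 22941 genes tested.

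Ednra, the endothelin receptor A, was at 45.9, 137.8, 235.6 and 154.4 CPM in Δ104 and 57.9, 39.3 and 44 CPM in Δ306 (1.61, adjusted p 0.0574 by edgeR and 4.65e-04 by DESeq2). Il13ra2, a decoy receptor of interleukin 13, was at 2.14, 1.62, 0.872 and 0.146 CPM against 5.4, 6.87 and 8.3 CPM (−2.50, adjusted p 0.0574). Nppa, a natriuretic peptide of the atrium, had 0, 0, 0 and 2 counts in Δ104 and 37, 15 and 23 counts in Δ306 (adjusted p 0.0591 by edgeR). It was at 0.276 to 0.447 CPM in WT, 0 to 0.11 CPM in Δ225 and 0 to 0.1 CPM in Δ93. At this gene WT and Δ306, which share one wording of the labels, lay above all libraries of Δ225, Δ104 and Δ93.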
